A study of Drosophila melanogaster with 2 samples.

Results

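Peaks of the zinc finger protein pebbled were examined where they lay inside introns, near a promoter but not at one. A peak was taken from the joint list when its summit fell inside a protein-coding gene and outside every annotated exon, more than 1000 and at most 5000 bp from the closest transcription start site (TSS) of a protein-coding gene, and neither inside nor within 1000 bp of a gene annotated as ncRNA. Of the 2841 peaks on the 7 main chromosomes, 1372 had their summit in an intron, 494 of those met the distances, and 24 were left out for a neighbouring ncRNA gene. This gave 470 intronic peaks in 365 host genes. The peaks came from ChIP-seq on whole Drosophila melanogaster embryos, 0 to 24 h old, of the strain peb-GFP, a transgenic line that makes a fusion of peb and eGFP. Chromatin was sonicated to 200 to 800 bp and precipitated through the eGFP tag with an anti-GFP antibody. There were 2 biological replicates in 1 group, with the same genotype and age, and no second condition; the control input was not analysed here. Whole embryos of all embryonic ages were pooled, so a peak cannot be assigned to a tissue or a stage, the regulatory sequence that drives the fusion is not given in the labels, and the lists hold no read numbers, so the depth is unknown.

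The gene pebbled, also called hindsight, encodes a nuclear protein with C2H2 zinc fingers and is the fly homologue of mammalian RREB1. It is made in the amnioserosa, the extraembryonic epithelium that drives germ band retraction and dorsal closure, and also in the tracheae, the midgut and the peripheral nervous system, and it has been linked to the Notch and JNK pathways. In the fly genome the long introns that follow the 5′ exons of developmental genes often hold enhancers, and many of these genes start from several alternative promoters that lie within the introns of their longer transcripts.

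Among the 20 strongest intronic peaks, 9 carried the 6-mer ACAGTG, or CACTGT on the other strand, within 100 bp of the summit, and 7 of these are printed with 100 bp either side of the summit (dm6, plus strand, 5′ to 3′, the 6-mer in capitals). They are shown because this 6-mer was the one with a G or C whose share at the summits stood farthest above that in the neighbouring sequence, and they are named by their host gene.
NFAT (chrX:13640417-13640617, plus strand): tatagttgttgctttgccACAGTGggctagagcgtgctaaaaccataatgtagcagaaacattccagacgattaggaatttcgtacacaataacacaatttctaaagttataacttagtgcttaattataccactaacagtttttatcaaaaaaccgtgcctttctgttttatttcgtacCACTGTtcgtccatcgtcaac
norpA (chrX:4324877-4325077, plus strand): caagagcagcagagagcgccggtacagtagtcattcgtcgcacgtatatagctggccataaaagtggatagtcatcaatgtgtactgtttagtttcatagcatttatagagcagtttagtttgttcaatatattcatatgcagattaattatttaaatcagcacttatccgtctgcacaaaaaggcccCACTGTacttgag
Raf (chrX:2297635-2297835, plus strand): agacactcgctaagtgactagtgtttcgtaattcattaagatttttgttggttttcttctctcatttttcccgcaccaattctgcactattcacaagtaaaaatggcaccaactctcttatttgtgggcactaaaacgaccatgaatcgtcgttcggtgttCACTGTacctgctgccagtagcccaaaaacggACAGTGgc
for (chr2L:3655704-3655904, plus strand): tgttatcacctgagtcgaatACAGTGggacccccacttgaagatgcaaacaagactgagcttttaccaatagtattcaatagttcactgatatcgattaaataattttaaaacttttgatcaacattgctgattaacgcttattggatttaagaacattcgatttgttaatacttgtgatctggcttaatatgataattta
CG32264 (chr3L:3785132-3785332, plus strand): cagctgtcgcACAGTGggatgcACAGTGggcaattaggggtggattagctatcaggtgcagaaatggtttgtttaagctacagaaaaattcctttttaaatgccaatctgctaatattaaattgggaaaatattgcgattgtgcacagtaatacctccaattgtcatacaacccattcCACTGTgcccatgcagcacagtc
mnb (chrX:17880360-17880560, plus strand): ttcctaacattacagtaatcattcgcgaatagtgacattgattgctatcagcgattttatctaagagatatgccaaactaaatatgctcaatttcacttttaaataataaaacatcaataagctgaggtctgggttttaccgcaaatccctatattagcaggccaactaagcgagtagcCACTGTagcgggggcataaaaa
pico (chrX:19847018-19847218, plus strand): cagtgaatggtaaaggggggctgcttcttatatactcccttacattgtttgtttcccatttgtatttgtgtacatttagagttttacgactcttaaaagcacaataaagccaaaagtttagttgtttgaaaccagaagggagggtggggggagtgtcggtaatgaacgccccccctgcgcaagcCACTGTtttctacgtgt
All 7 were among the 19 strongest of the intronic peaks. Each held at least 1 copy that read towards the summit, that is ACAGTG to the left of the central base or CACTGT to its right. In NFAT and CG32264 copies faced the summit from both sides, and in Raf 1 of 2 copies read away from it.

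The authors' signal value, which ranks peaks within 1 list and has no common scale between lists, had a median of 71.0 over the intronic peaks, and ran between 2.04 and 938. It had a median of 74.4 over the other 2371 peaks of the list, 69.7 over the 322 peaks in introns beyond 5000 bp and 76.0 over the 875 peaks within 200 bp of a TSS. The middle of the intronic peaks lay between 53.6 and 101, the lower and upper quartiles, and 34 of them (7.23%) were among the strongest 10% of the whole list. All 24 peaks with a signal under 20 overlapped another peak of the list, and 54 of the 470 overlapped another intronic peak of the same set, so that 443 separate regions remain when these are joined. A further measure of crowding was that 91 peaks had another intronic summit within 1000 bp.

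By the replicates' own thresholded lists, 170 intronic peaks (36.2%, exact 95% interval 31.8 to 40.7%) overlapped a peak of both replicates, where the share over the whole list was 40.8%. The share was 41.8% over the other peaks of the list, 32.9% in introns beyond 5000 bp and 44.5% within 200 bp of a TSS. Replicate 1 had a peak at 198 of the intronic peaks (42.1%, and 48.0% over the whole list) and replicate 2 at 319 (67.9%, and 68.9% over the whole list). Of the intronic peaks, 28 (5.96%) were found in replicate 1 alone, 149 (31.7%) in replicate 2 alone, and 123 (26.2%) in neither. Over the whole list these shares were near, at 7.18%, 28.1% and 23.9%. In the full ranked lists, which were not cut at the threshold, 462 of the 470 (98.3%) had a peak in both replicates. The share over the whole list was much the same, at 98.2%.

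Intronic peaks found in both thresholded lists had a median joint signal of 117, those found in 1 list 65.5, and those found in neither 51.9. The joint list derives from both replicates and each replicate list is cut at a threshold. An order of this kind therefore follows in part from how the lists were made. Among the 170, the signal had a median of 53.8 in replicate 1 (29.2 to 428) and 66.6 in replicate 2 (31.3 to 507). Peaks that were strong in one replicate were mostly strong in the other, with a Spearman correlation of 0.72 across these 170 peaks, which share 2 libraries and are given as a description; over all 1160 peaks in both lists it was 0.79. The summits of the replicates lay a median of 22 bp apart.

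**Figure D1:**
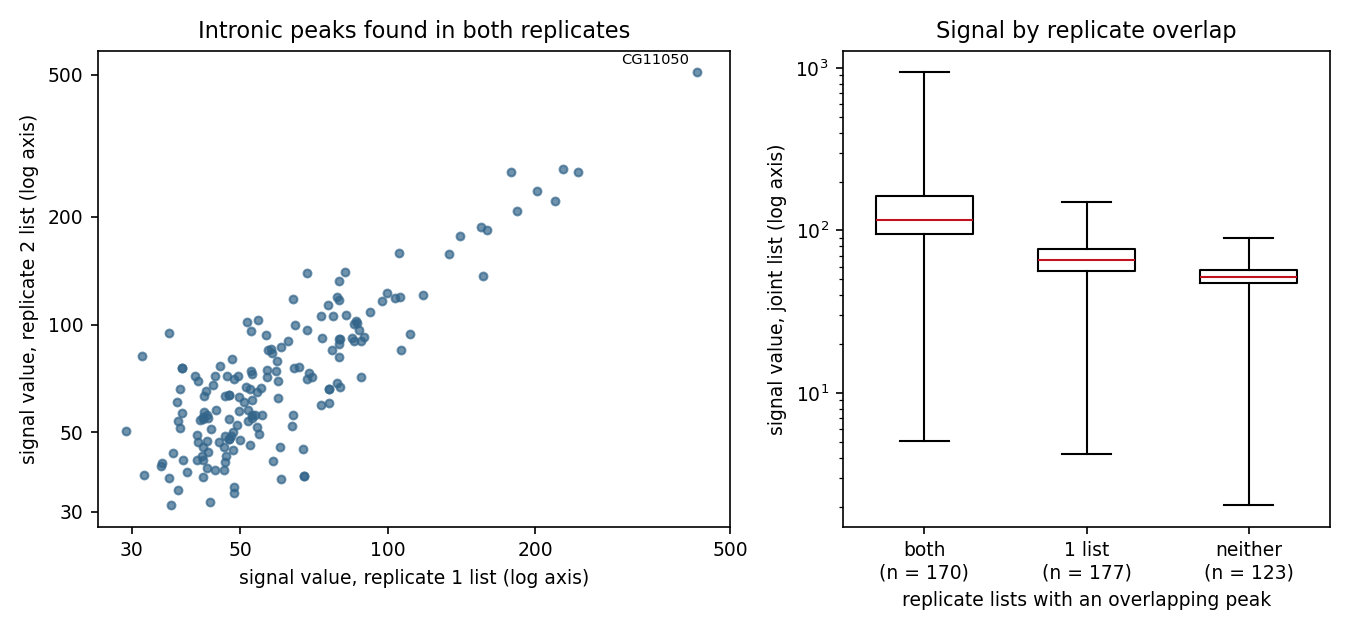
The left panel plots the authors' signal value of the 170 intronic peaks found in both replicates, replicate 1 on the x axis and replicate 2 on the y axis, both log axes. The right panel gives the joint list's signal (log axis) by the number of replicate lists with an overlapping peak, as medians (red), quartiles (boxes) and full range (whiskers); the medians are 117, 65.5 and 51.9. Their order follows in part from the thresholds of the replicate lists.

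The strongest intronic peak lay in CG11050 (FBgn0031836, chr2L:6612562-6612873), with a signal of 938 in the joint list, 428 in replicate 1 and 507 in replicate 2. Its summit was 1016 bp downstream of the TSS, in the 140 bp long intron 2, and close to the lower distance limit. This peak was 312 bp wide, longer than the intron, and reached into the exons on both sides of it. The next was in CG32772 on X (FBgn0052772, chrX:4910243-4910488), with 518 in the joint list, 245 in replicate 1 and 267 in replicate 2. Both were high in both replicates, and the gap between them was wider than any other gap between neighbours in this ranking.

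Among the next were genes of transcription and chromatin factors. Trl encodes the GAGA factor, which opens chromatin at promoters and enhancers, and its intronic peak (chr3L:14759375-14759662) had 505 in the joint list, 228 in replicate 1 and 272 in replicate 2. Tlk, a Tousled-like kinase of chromatin assembly, had 447 in the joint list, 179 in replicate 1 and 268 in replicate 2 (chrX:3742095-3742343). NFAT, a transcription factor of the Rel homology type, had 389 in the joint list, 184 in replicate 1 and 208 in replicate 2. In each of these genes the peak was present in both replicates.

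The remaining host genes of the 20 strongest are given by what their products are known to do. Raf, the kinase below Ras in receptor tyrosine kinase signalling, had 343 in the joint list, 155 in replicate 1 and 188 in replicate 2. The EGF pathway was also represented by aos, which encodes the secreted EGF receptor inhibitor argos, with 228 in the joint list, 106 in replicate 1 and 119 in replicate 2. A regulator of the ETS factors of the same pathway, edl, had 228 in the joint list, 99.7 in replicate 1 and 122 in replicate 2. Other host genes with a kinase or phospholipase product were norpA, the phospholipase C of phototransduction (347), for, a cGMP-dependent protein kinase (320), Pak3, a p21-activated kinase (287), mnb, a kinase of the DYRK family (226), and Btk, a Tec family kinase (225), each given by its joint signal. The secreted insulin-binding protein gene ImpL2 had 289, the adaptor gene pico 216, and cno, which encodes the junction protein canoe and acts in dorsal closure, 213. The uncharacterised genes CG3726, CG12769, CG9837 and CG32264 had 445, 435, 267 and 235. All 20 had a peak in both replicates, with signals of 79.4 (cno) and more in replicate 1 and 116 (pico) and more in replicate 2.

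Most intronic peaks lay in a first intron. Numbering the introns in each transcript and taking the lowest number over the host gene's transcripts, 359 of 470 peaks (76.4%, 72.3 to 80.2%) were in intron 1, 86 (18.3%) in intron 2, 11 in intron 3 and 14 in a later one. Of all intronic bases that meet the same rule, called eligible sequence here (16.6 Mb), 56.6% lay in a first intron. The density was 38.2 peaks per Mb of eligible sequence in first introns (exact Poisson 95% interval 34.3 to 42.3) and 15.4 in later ones (12.6 to 18.5). The intervals did not overlap, and the densities stood apart both at 1000 to 2000 bp from the TSS (47.8 in first and 15.0 in later introns) and at 2000 to 5000 bp (32.0 in first and 15.5 in later introns). The share depends on the transcript used: of the 406 peaks inside an intron of the canonical transcript, 239 (58.9%) were in its first. Signal varied less with the intron, with a median of 73.3 in first introns, 60.6 in intron 2 and 68.2 in intron 3 or later. The introns were long, with a median of 10368.5 bp (94 to 121519 bp). The rule itself favours long introns, because summits had to be outside exons and more than 1000 bp from a TSS. Among introns with the same lowest number the longest was taken, and no length over eligible sequence is given.

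The closest TSS belonged to the host gene itself at 414 of the 470 peaks (88.1%), where 74.1% of eligible sequence has its host's TSS as the closest. Density was 33.6 per Mb (30.4 to 37.0) where the closest TSS was the host's and 13.0 (9.80 to 16.9) where it was that of another gene, as at 56 peaks (11.9%). The peak of mnb was of this second kind, 3258 bp upstream of a TSS of CG12985. In 310 peaks (66.0%) the summit was downstream of the closest TSS, against 69.2% of eligible sequence. At 122 peaks (26.0%) the summit was upstream of an alternative promoter of its own host, as at CG12769, NFAT, ImpL2 and CG9837 among the 20 strongest. Another summit of the list lay within 1000 bp of that closest TSS at 116 peaks (24.7%), a share for which no value over eligible sequence is given.

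Density was highest next to the lower limit, at 35.8 per Mb between 1000 and 2000 bp (31.1 to 41.0), 25.7 between 2000 and 3000 bp, 25.3 between 3000 and 4000 bp and 20.7 between 4000 and 5000 bp (15.8 to 26.6). The interval of the nearest bin lay above that of the farthest, and narrowly above that of the bin next to it, but overlapped that of the bin at 3000 to 4000 bp, and the 3 farther bins overlapped each other. Introns beyond 5000 bp had 11.8 per Mb and the sequence within 200 bp of a TSS 127. Distance had little relation to signal, with a Spearman correlation of -0.04 across the 470 peaks, a description over peaks that share libraries and host genes. On either side of the limits, the closest intronic peaks inside were those of piwi (1004 bp, signal 62.4), sty (1006 bp, 64.8), ush (4993 bp, 98.5) and Ac13E (4990 bp, 59.6), and the closest outside were those of Fili (996 bp, 265), Acsl (989 bp, 72.5), cv-c (5010 bp, 64.1) and comm (5014 bp, 44.6).

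On X the density was 38.5 intronic peaks per Mb of eligible sequence (32.1 to 45.8, 127 peaks), above the 26.1 of the 4 large autosomal arms together (23.4 to 29.0, 343 peaks). Among the arms it was highest on 2R (29.2), followed by 3R (27.4), 3L (26.7) and 2L (20.6), and chromosomes 4 and Y had none. Each replicate's own list had more on X, with 15.8 per Mb on X and 11.5 on the arms in replicate 1, where the intervals overlapped, and with 28.5 on X and 17.8 on the arms in replicate 2, where they did not. Introns beyond 5000 bp had 16.2 on X and 11.5 on the arms, whose intervals overlapped by a narrow margin. Within 200 bp of a TSS X was not higher, with 106 on X and 132 on the arms and intervals that met. The signal did not follow the density, with a median of 71.5 on X and between 63.4 (3R) and 76.8 (2R) on the arms.

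**Figure D2:**
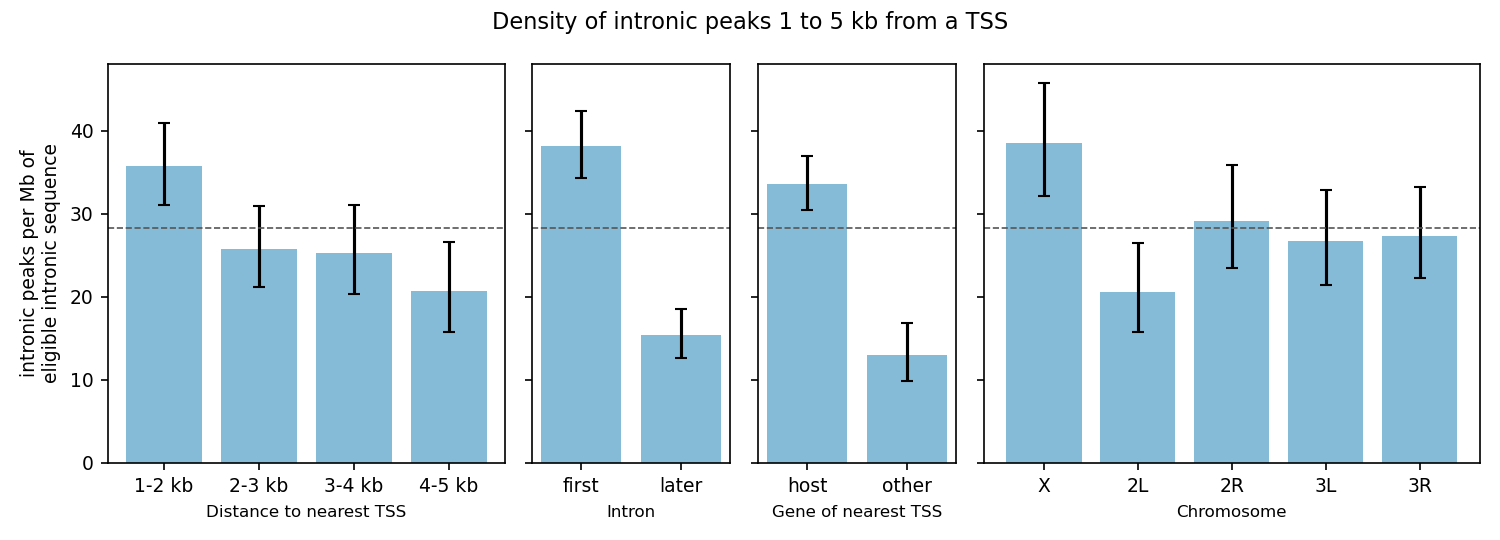
Bars give intronic peaks per Mb of eligible intronic sequence by distance to the closest TSS, by intron, by the gene that owns the closest TSS and by chromosome, with exact Poisson 95% intervals that cover counting error only; the dashed line is the value over all eligible sequence. First introns (38.2), sequence closest to the host's own TSS (33.6) and X (38.5) stand above later introns (15.4), other genes' TSSs (13.0) and the autosomal arms.

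Of the 6812 protein-coding genes with any eligible sequence, 365 held an intronic peak (5.36%). The share grew with the amount of eligible sequence, to 212 of the 983 genes with 5000 bp or more of it (21.6%). Host genes often had a promoter peak too: 136 of the 365 (37.3%, 32.3 to 42.4%) had a summit within 1000 bp of one of their TSSs, against 16.5% of the 6447 genes with eligible sequence and no intronic peak, and 17.6% over all of them. Among genes with 5000 bp or more of eligible sequence the shares were 42.5% of 212 host genes and 20.9% of 771 other genes. Most host genes had 1 intronic peak (269) or 2 (74), and 22 had 3 or more.

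The gene with most was shn, which encodes schnurri, a zinc finger partner of the BMP-activated Smads that represses brinker. Its 8 peaks had signals between 10.8 and 180. The rule places every peak 1000 to 5000 bp from a TSS, and these 8 were spread around 4 of the gene's alternative starts. Of these, 3 were in both replicates: the strongest, 3413 bp upstream of an internal TSS (180 in the joint list, 84.6 in replicate 1, 91.8 in replicate 2), one 1329 bp downstream of another (141 in the joint list, 57.9 in replicate 1, 83.1 in replicate 2), and one with 92.8 in the joint list, 48.3 in replicate 1 and 44.6 in replicate 2. The other 5 had 58.7 or less in the joint list and a peak in 1 replicate each. No summit lay within 1000 bp of any shn TSS.

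Tlk had 6 intronic peaks, and its 447 was far above the other 5, at 126, 115, 88.4, 79.4 and 2.04. CHES-1-like, a forkhead factor gene, had 5, with the highest pair at 191 (82.0 in replicate 1, 106 in replicate 2) and 188 (86.3 in replicate 1, 102 in replicate 2), in an intron between alternative starts. The other 3 were at 72.9, 53.6 and 46.0, each in replicate 2 alone. Spn (spinophilin) and apt, a DNA-binding factor of the tracheae and head, had 4 each, none above 84.3.

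The 17 genes with 3 intronic peaks included the Ste20 kinase gene msn, which acts above JNK in dorsal closure (130, 73.2 and 28.1), and ush, whose product U-shaped is a GATA cofactor needed in the amnioserosa (98.5, 98.0 and 92.4). All 3 peaks of ush were in both replicates, whereas msn had 1 in both. Pli, the Pellino ubiquitin ligase gene, had 185, 164 and 49.3, and ImpL2 had 289, 202 and 58.3. The cell surface genes fra, a netrin receptor, and kirre, of myoblast fusion, had highest signals of 150 each; fra had no peak in replicate 1 and kirre had 2 in both replicates. The others were the pseudokinase gene trbl (highest signal 96.9), the TIF1 homologue bon (101), Septin4 (96.0), Evi5 (186), the Myc antagonist Mnt (113), atos (161), tna (84.4), tou (88.8), rols of myoblast fusion (68.5), CG14434 (66.0) and CG14441 (56.3). In shn, trbl, bon, msn, tna and CG14441 a pair of overlapping or adjoining peaks of the joint list shared 1 peak of a replicate, so their values are not independent.

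**Figure D3:**
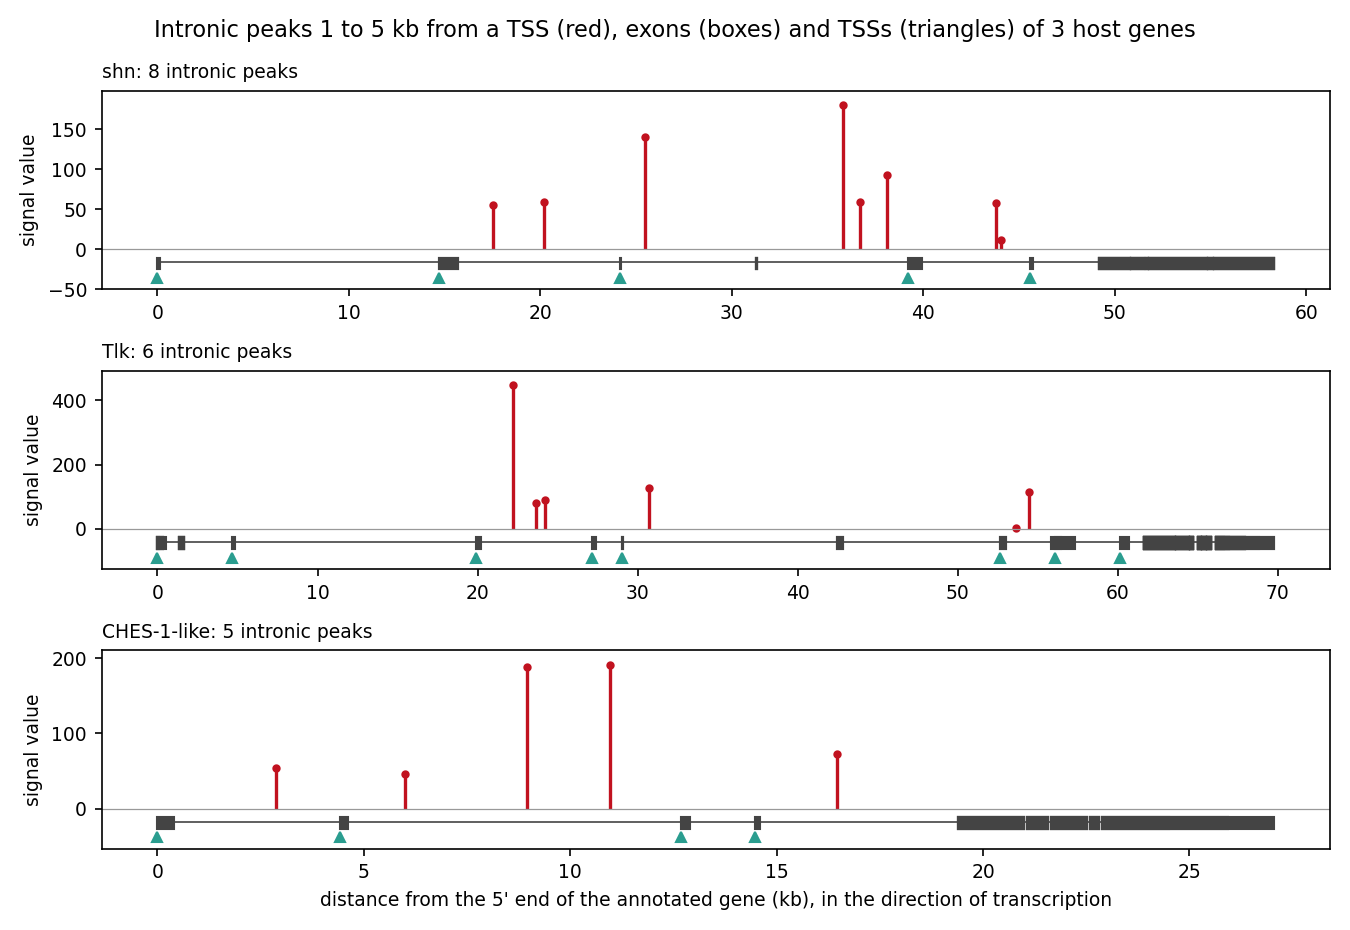
Intronic peaks of shn, Tlk and CHES-1-like are drawn as red stems at their distance from the 5′ end of the gene (kb, in the direction of transcription), with the authors' signal value of the joint list as height; exons are boxes and annotated TSSs are triangles. The 8 peaks of shn are spread over several introns, and in Tlk a peak of 447 stands above 5 others.

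Host genes were counted on 15 lists of developmental and housekeeping genes (328 genes, 55 of them hosts). Genes on most of these lists have much intronic sequence, with a median of 3481.5 bp of eligible sequence on the BMP list and 572.5 bp over all genes with any, so density is given beside the share; over all eligible sequence it was 28.3 per Mb. The highest share was that of the BMP and activin list, with 7 of 16 genes (43.8%, 19.8 to 70.1%) and 136 peaks per Mb. Of its 14 peaks 8 were those of shn. The others were in wit, a type II receptor (163 in the joint list, 68.5 in replicate 1, 96.7 in replicate 2), and, with signals of 48.4 to 69.5, in the receptor genes tkv and put, in sog, which encodes a secreted BMP antagonist, and in the glypican genes dally and dlp.

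The JNK and dorsal closure list had 5 of 15 genes (33.3%) and 99.4 peaks per Mb. Besides cno and msn, these were the ETS repressor gene aop (181 and 88.2), puc, the JNK phosphatase (79.8 in the joint list, 48.5 in replicate 1, 33.7 in replicate 2), and egr, the TNF ligand (59.9). The EGF and FGF list had 7 of 26 genes (26.9%) and 67.4 peaks per Mb. It comprised Raf, aos, aop, the Star gene S of EGF ligand trafficking (201.4 and 92.5), the FGF ligand gene ths (116), and with lower values sty (64.8), an inhibitor of the pathway, and pnt (51.5), its ETS activator. Both aop and the peaks in it count on each of these lists.

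For the tracheal and ectodermal list the count was 4 of 14 genes (28.6%) and 96.5 peaks per Mb: rib (155 and 142), grh (140), apt and sim. Wnt genes numbered 5 of 19 (54.2 per Mb), the highest being arr, the LRP co-receptor (110 and 75.2), and nkd, an inhibitor (74.9). The Notch list had 3 of 15 (54.5 per Mb), the co-activator gene mam (145 and 121), neur, the ubiquitin ligase of ligand endocytosis (145), and the receptor gene N itself, whose 41.8 had no peak in either replicate. When peaks were given to the gene of the closest TSS instead, 1 Notch gene was counted, and the closest TSS to both mam peaks was that of CG18371. BTB and other zinc finger genes numbered 6 of 24 (32.8 per Mb), with Trl first and then sr (134), ken (118), bowl (102) and bab1 (48.6).

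Cell adhesion and axon guidance genes numbered 8 of 35 (35.2 per Mb), led by fra, kirre, Ten-a (104) and sli (102). By the closest TSS the count was 5: that of CG33752 was the closest to all 3 fra peaks, and 2 of the 3 kirre peaks were also inside CG32795, whose TSS was the closest. The mesoderm list had 4 of 20 (43.9 per Mb), led by kirre and mbc (143), the ecdysone list 3 of 15 (23.9 per Mb), led by Hr3 (99.8), and the neural list 3 of 19 (31.1 per Mb), led by grh. The amnioserosa and hindsight list, which is the nearest to what peb is known for, had 2 of 16 genes, ush and puc (41.1 per Mb). Chromatin regulators had 2 of 28, Trl and ph-p (101 and 71.7), at 54.6 per Mb, hedgehog genes 1 of 10, boi (95.7), at 29.0 per Mb, and cytoplasmic ribosomal protein genes 0 of 7, which allows a share of up to 41.0%. With so few genes per list most intervals are wide, and those of the ecdysone, Notch, neural, amnioserosa, hedgehog, chromatin and ribosomal lists held the 5.36% of all genes. All 15 intervals held the 21.6% found above for genes with 5000 bp or more of eligible sequence. The lists were not cut at that length, and most had a lower median, such as 645 bp for chromatin regulators and 150 bp for ribosomal protein genes. That share is therefore not matched to the lists.

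**Figure D4:**
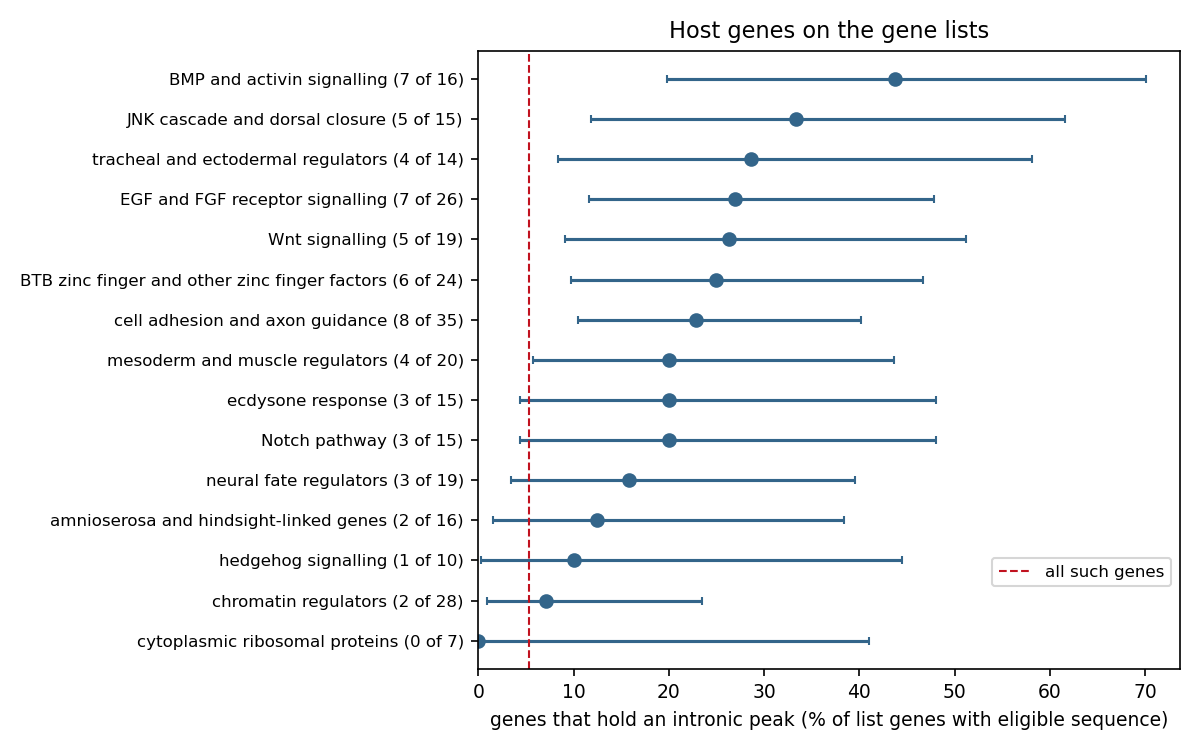
Points give the share of each list's genes with eligible intronic sequence that held an intronic peak (x axis, percent), with exact 95% intervals and, in the labels, the numbers of genes; the dashed line is the share over all such genes, 5.36%. BMP and activin signalling is highest at 43.8%, and the ribosomal protein list is at 0.

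In sequence, the summits lay in stretches that were richer in AT than the sequence 1000 bp away. Windows of 100 bp either side of the summits had a median GC content of 35.3%, against 40.8% in 894 windows of the same length centred 1000 bp to either side that overlapped no peak. These neighbouring windows were not confined to introns, and no GC content over eligible sequence is given. The median at summits was also 35.3% in introns beyond 5000 bp and within 200 bp of a TSS. Signal and GC content had a Spearman correlation of -0.14 across the 470 peaks. Of all 2080 6-mers with both strands merged, TTAAAA had the highest share above the neighbouring windows, present in 47.4% of summit windows, 28.1% of neighbouring windows and 32.3% of the 81558 windows of the same length that tile eligible sequence. It was found nearest the centre, in 17.0% and 20.6% of peaks in the 50 bp to the left and right of the summit, and in 6.17% and 6.81% at 150 to 200 bp. TTAAAA was not particular to these introns, with 50.9% in introns beyond 5000 bp, 52.2% within 200 bp of a TSS and 45.0% at intergenic peaks.

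The next was ACAGTG, in 124 of 470 summit windows (26.4%, 22.5 to 30.6%), 9.84% of neighbouring windows and 7.18% of eligible windows. The 3rd and 8th of the ranking, AGTGTA (24.0% at summits, 8.50% beside them) and ACTGTA (22.6% at summits, 7.72% beside them), overlap it in sequence, and the remaining 7 of the top 10 held only A and T. The 7-mer CACTGTA, which joins these letters, was in 13.2% of summit windows, 3.02% of neighbouring windows and 1.80% of eligible windows. The shorter CACTG was in 54.0% of summit windows, 31.4% of neighbouring windows and 27.9% of eligible windows, and 20.4% of summit windows held 2 or more copies of it, against 4.92% of neighbouring ones. CACTG was in 58.7% of summit windows in introns beyond 5000 bp, 43.7% within 200 bp of a TSS and 56.6% at intergenic peaks. These patterns were chosen after the ranking was seen, and overlapping peaks share windows.

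The share with ACAGTG increased with signal. With the intronic peaks split by signal into 4 classes of 117 or 118, it was 18.6% in the lowest class, then 22.2%, 29.1% and, in the highest, 35.6%. The intervals of the lowest and the highest class did not overlap, by a narrow margin. It was 32.9% among peaks in both replicates, 22.6% among those in 1 and 22.8% among those in neither. It was 33.1% on X and 23.9% on the autosomal arms, and 28.1% in first introns and 20.7% in later ones, and the intervals overlapped in each of these comparisons. TTAAAA showed no such order with signal, at 47.5%, 49.6%, 47.0% and 45.8% from the lowest class to the highest. ACAGTG was not particular to these introns, with 18.9% in introns beyond 5000 bp (6.58% beside them), 19.0% within 200 bp of a TSS (9.02% beside them) and 22.2% at intergenic peaks (5.53% beside them).

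In contrast to TTAAAA, copies of ACAGTG were not centred on the summit. The 6-mer was found in the 50 bp to the left of the summit in 4.68% of the intronic peaks and to the right in 5.11%, but at 50 to 100 bp in 9.57% to the left and 11.1% to the right, and between 0.638% and 3.40% in the bins of 50 bp at 250 to 500 bp on either side. Its orientation changed with the side. Of the 181 copies centred 50 to 150 bp from a summit, 140 (77.3%, 70.6 to 83.2%) read towards the summit, as in the sequences printed above. At 200 to 500 bp from the same summits, 63 of 125 copies (50.4%, 41.3 to 59.5%) did. The shares were lower than at 50 to 150 bp, with intervals that held 50%, in the bins on either side. At 0 to 50 bp 29 of 50 copies (58.0%, 43.2 to 71.8%) read towards the summit, and at 150 to 200 bp 29 of 45 (64.4%, 48.8 to 78.1%). Copies 50 to 150 bp away read towards the summit in 77.9% of 95 cases in peaks found in both replicates and in 76.7% of 86 in the other intronic peaks. The same orientation at 50 to 150 bp was seen in introns beyond 5000 bp (75.8% of 99 copies, and 61.3% of 62 at 200 to 500 bp). It was also seen within 200 bp of a TSS (72.6% of 215, and 41.9% of 229 at 200 to 500 bp) and at intergenic peaks (80.9% of 89, and 55.1% of 69 at 200 to 500 bp). The other bins differed between classes. At 0 to 50 bp the share was 88.2% of 17 copies in introns beyond 5000 bp, 54.9% of 82 within 200 bp of a TSS and 70.0% of 30 at intergenic peaks. At 150 to 200 bp it was 73.9% of 23, 54.4% of 57 and 73.9% of 23. In both bins only the interval within 200 bp of a TSS held 50%. At least 1 such inward copy was present in 110 intronic peaks (23.4%), and 27 peaks (5.74%) had one on both sides. What binds these letters was not tested, and orientation was looked at after the matches had been seen.

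**Figure D5:**
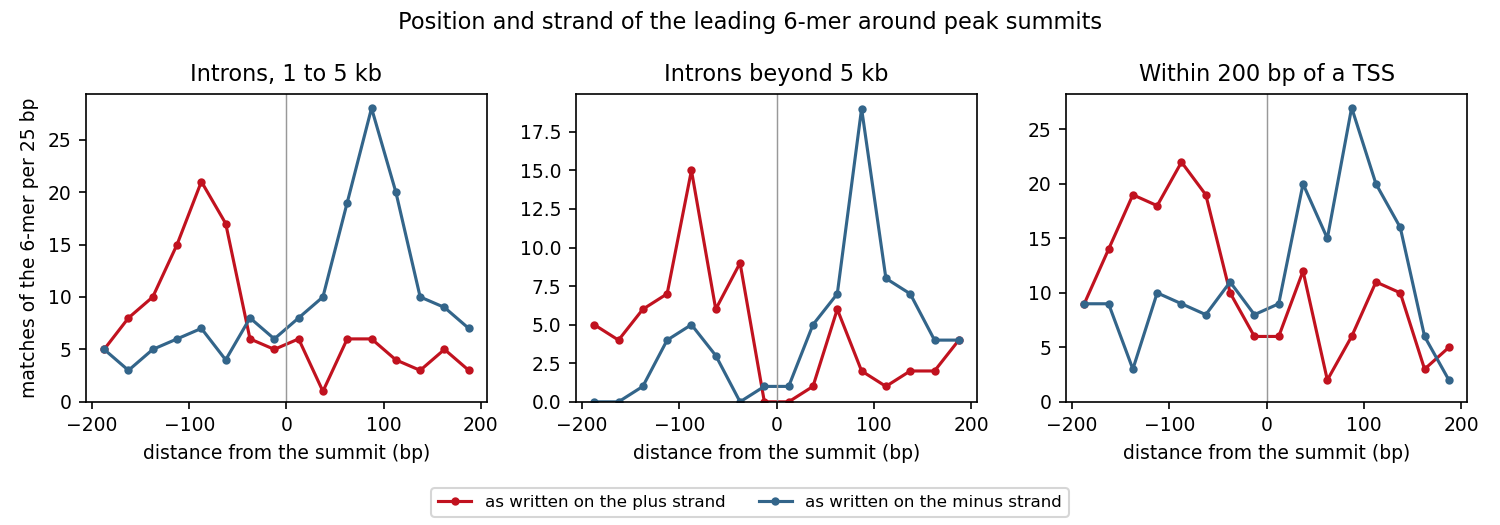
Lines give the number of copies of the 6-mer ACAGTG per 25 bp by distance of their centre from the summit (bp), as written on the plus strand (red) and on the minus strand (blue), for the 470 intronic peaks, the 322 peaks in introns beyond 5 kb and the 875 peaks within 200 bp of a TSS. Copies on the plus strand lie mainly to the left of the summit and copies on the minus strand mainly to the right, so that both read towards it.

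Patterns named for known factors differed less from the neighbouring windows in percentage points, by at most 3.49 for any of the 16 searched on both strands. Rare patterns can differ by few points only, so a small difference in points can be a large relative one. With 200 bp either side the largest difference was 8.62 points, for GAGAG. That pattern, the core read by the GAGA factor, was in 26.0% of summit windows, 24.2% of neighbouring windows and 20.7% of eligible windows. The pattern AGATAAG, known as a site of GATA factors, was in 4.68% of summit windows, 2.80% of neighbouring windows and 2.75% of eligible windows. Its interval at summits overlapped that of neighbouring windows and lay narrowly above that of eligible windows. With 200 bp either side AGATAAG was not above the neighbouring windows. TGGGAA, the Su(H) core, was in 9.15% of summit windows, 12.6% of neighbouring windows and 13.5% of eligible windows. Of the RREB1-type patterns, CCCCAAAC was in 1.06% of summit windows, 0.895% of neighbouring windows and 0.834% of eligible windows. The other, CCCACCC, was in 1.91% of summit windows, 1.45% of neighbouring windows and 2.57% of eligible windows. TATCGATA, the DREF site of many promoters, was in none of the 470, which allows a share of up to 0.782%. It was in 0.559% of neighbouring windows and 0.376% of eligible windows, and both shares lie within that limit. No match says only that these letters are not in the window.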

How the data were processed

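The authors deposited ChIP-seq peak lists on dm6, per the labels, for each of 2 replicates and for the experiment as a whole; the aligner, the peak caller and the depth are not given in the sources used here. The lists were thresholded by irreproducible discovery rate, per the file headers. Signal values, 1 per peak, come from the authors. Peaks were ranked by them inside 1 list at a time, and replicate values of a peak are printed together or correlated by rank. The deposited score is at least 830 and at most 1000 in the joint list, and peaks at 1000 were an alternative.

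Summits were placed on Ensembl release 115 (BDGP6.54) and the genome of the same build with Python 3.11.15 (scipy 1.17.1, pandas 2.3.3, numpy 2.4.6, matplotlib 3.10.9). The rule was checked on 22 made-up positions with known answers. Introns carry the lowest number over the host's transcripts. Overlap needed 1 bp. Eligible sequence comprises all bases that meet the rule for summits. Intervals are exact (Clopper-Pearson for shares, Poisson for densities) at 95% and cover counting error only; peaks that share a gene are not independent. With 1 group, no test between conditions exists and no p-value is given. Windows of 100 bp either side of a summit were searched on both strands, and neighbouring windows were centred 1000 bp away. No sequence of arm 2R is printed, and 1 gene list and 1 sequence are not reported here.

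Genes named are those of the 20 strongest peaks, hosts with 3 or more, up to 5 hosts per list, the 2 strongest on each chromosome and those next to the limits. The members and lists were chosen with earlier results of these data known. 1 list gene matched through an older symbol and 1 was not analysed here. Naming more than 5 hosts of the BMP and EGF lists was decided with values in view. Alternatives were the conservative list, other distances, TSSs, windows, overlaps and scores, ncRNA genes kept, joined overlaps, and each replicate's list alone.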

Additional observations from a re-analysis of the deposited data

How the results depend on the processing

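The number of intronic peaks was 470, and 262 when summits had to be more than 2000 bp from a TSS; in the list of 1 replicate alone it was 203 to 328, the lower number without replicate 2. The share in both replicates was 36.2%, and 44.3% among peaks at the highest score, 28.1% when each overlap had to cover 50% of both peaks, and 98.3% in the full ranked lists. The share in a first intron was 76.4%, and 69.8% beyond 2000 bp, 80.7% with canonical TSSs and 58.9% in the canonical transcript. The share downstream of the closest TSS was 66.0%, and 76.2% with canonical TSSs. Density was 28.3 per Mb, and 23.1 at the highest score and 12.2 to 19.7 in the list of 1 replicate alone. The excess of ACAGTG over neighbouring windows was 16.5 points, and 4.80 with 50 bp either side of the summit, 23.1 with 200 bp, and 16.8 to 21.6 in the list of 1 replicate alone. The ACAGTG alternatives, joined overlaps and uncounted transposon exons were chosen after seeing the data. For these 6 results, 36 other values stayed within the limits set for a like value. GAGAG was 1.80 points above its neighbouring windows, 8.62 above with 200 bp either side, and below with 50 bp (-2.81) and without replicate 1 (-0.34) or replicate 2 (-0.38). With 200 bp TGGGAA was at -5.40 points, AAAAAAAA at -4.43, GCCATNTT at -4.23, CAGCTG at 3.64, CCCACCC at 2.51, TATCGATA at -0.71 and AGATAAG at -0.17; without replicate 1 TGGGAA was at -0.46 and AACCGGTT at -0.48. By the closest TSS the hosts were 1 on the Notch list and 5 on the adhesion list. The cause of these shifts was not tested. No paired analysis was possible because there is 1 group. The lists give no read numbers, so peaks that miss the threshold in a replicate cannot be told apart from peaks that were not sampled deeply enough.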
